A study of Mus musculus with 12 samples.

Results

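Genes subject to genomic imprinting were followed through MYC-driven T-cell lymphoma of the mouse, with the growth factor receptor adaptor Grb10 at the centre. Of 10 listed genes, 8 had a probe set that the platform annotation gives to that gene alone (Grb10, Airn, Igf2r, Impact, Peg3, Plagl1, Meg3 and Cdkn1c), among 19309 genes measured. Each of the 8 had 1 such probe set. Zrsr1 and H19 had none and were not analysed here.

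An imprinted gene is transcribed mainly from the maternal or mainly from the paternal chromosome. The choice is fixed by DNA methylation that is laid down in the germ line, where Dnmt3a is the main methyltransferase for it, and is then copied at each cell division by Dnmt1. Many imprinted genes set the pace of fetal growth and are turned down after birth in most tissues, while a few stay active in adult blood cells.

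The arrays came from thymus of FVB/N mice and fell into 3 groups. The 4 Dnmt3a-deficient tumors were T-cell lymphomas taken at the terminal stage, induced by MYC in mice whose Dnmt3a had been deleted in the blood-forming lineage. The 5 control tumors were MYC-induced lymphomas at the terminal stage with a wild-type genotype at Dnmt3a. The 3 arrays of normal thymocytes came from wild-type animals of an age labelled 24 dpn that had no tumor. MYC and tumor state thus differ together between tumors and normal cells, and so does the Dnmt3a deletion for deficient tumors. No age is labelled for the tumors, so age may differ as well. The labels used here name neither the promoter that drove MYC or the deletion nor whether arrays came from different animals. A p-value here reflects the spread among arrays within groups, pooled over the 3 groups in the fit, and this spread may be partly technical. A comparison of the 2 tumor groups thus also draws on the spread of the normal thymocytes. Values are log2 expression as processed by the authors, on which a difference of 1 is a 2-fold change. Which arrays were normalized together is not stated, so levels may not be fully comparable between arrays.

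Dnmt3a itself was lower in the deficient tumors than in the control tumors (log2 difference -1.25, SE 0.23, limma adjusted p = 0.0317), with 7.19 to 7.62 in deficient tumors, 8.19 to 9.57 in control tumors and 9.33 to 9.63 in normal thymocytes. That call ended without control tumor 3 (adjusted p = 0.0658), deficient tumor 1 (0.0629), deficient tumor 3 (0.108) or deficient tumor 4 (0.0993), in a range of 0.00397 to 0.108 over 20 alternatives. The 14 measured T-lineage markers, Cd3d, Cd3e and Thy1 among them, averaged 9.63 to 10.20 in deficient tumors, 10.17 to 10.61 in control tumors and 11.32 to 11.41 in normal thymocytes. The 75th percentile of an array was 8.50 to 8.60 in all 4 deficient tumors and in control tumors 1 and 2, and 8.13 to 8.30 in control tumors 3 to 5 and in normal thymocytes, so the control tumors fall into 2 sets by this measure. Control tumors 3 and 4 had neutrophil marker means of 7.59 and 7.50 (12 of 13 listed markers measured), against 5.40 to 5.90 in deficient tumors, 5.64 to 5.80 in the other control tumors and 6.23 to 6.58 in normal thymocytes. Control tumor 2 had an adipocyte marker mean of 8.24 (7 of 8 measured), against 5.24 to 5.54 in deficient tumors, 5.38 to 5.47 in the other control tumors and 5.47 to 5.68 in normal thymocytes. On this scale no marker has a true 0.

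Among the 8 imprinted genes, Grb10 alone differed between the tumor groups beyond the threshold, and it was lower in the deficient tumors. Limma called 1 of 8, against 0.818% of all genes in either direction and 0.228% in the lower direction, and 3 of 8 had an unadjusted p under 0.05, against 20.2% of all genes. The share of all genes called between the tumor groups depended on single arrays. It was 5.24% without control tumor 1, 7.68% without control tumor 2, 0.145% without control tumor 3 and 0.186% without control tumor 4. Leaving out deficient tumor 1 gave 0.528%, deficient tumor 3 gave 0.171% and deficient tumor 4 gave 0.0829%. Leaving out a normal array gave 0.264% to 0.280%, and a fit of the tumors alone 0.00518%. Against normal thymocytes, deficient tumors had 2 genes higher (Airn and Impact) and 1 lower (Cdkn1c), and control tumors 3 higher (Grb10, Airn and Impact) and 1 lower (Cdkn1c). The share called was 37.5% of the 8 in deficient tumors, close to the 37.6% of all genes, and in control tumors 4 of 8 were called, against 24.4% of all genes. By direction, limma called 18.7% of all genes higher and 19% lower in deficient tumors, and 13% higher and 11.3% lower in control tumors. Groups that did not overlap were found for 2 of the 8 genes between the tumor groups, against 6.15% of all genes. They were found for 6 of 8 between deficient tumors and normal thymocytes (3 higher, 3 lower, against 49.7% of all genes, 23.0% higher and 26.7% lower), and for 4 of 8 between control tumors and normal thymocytes (3 higher, 1 lower, against 27.7%, 13.8% higher and 14.0% lower). The median difference of the 8 genes was -0.05 for deficient minus control tumors, 0.33 for deficient tumors minus normal thymocytes and 0.09 for control tumors minus normal thymocytes, beside -0.01, -0.10 and -0.08 over all genes. The 2 comparisons with normal thymocytes share the same 3 normal arrays. The plot of the 8 genes by array shows the values behind these counts.

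**Figure D1:**
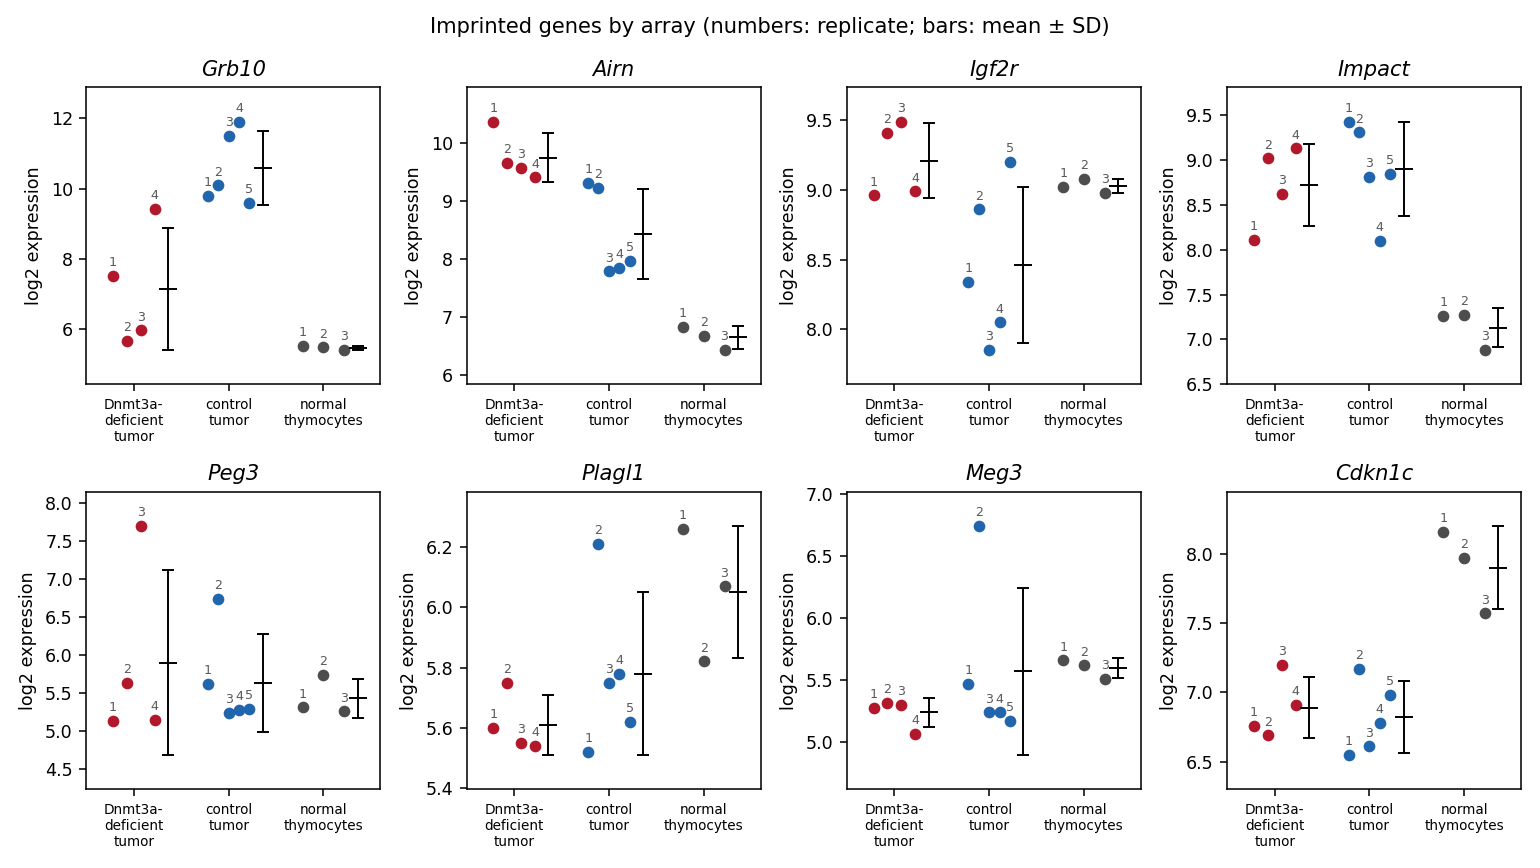
Log2 expression (vertical axis) of the 8 imprinted genes in Dnmt3a-deficient tumors, control tumors and normal thymocytes; each point is an array with its replicate number, and the black bars are mean ± SD of the group (n = 4, 5 and 3). Grb10 is lower in every deficient tumor (5.67 to 9.43) than in every control tumor (9.59 to 11.91), and Airn is higher in every deficient tumor (9.41 to 10.37) than in every control tumor (7.79 to 9.31).

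The promoter windows of Grb10, Airn and Igf2r are shown here because Grb10 is the gene called between the tumor groups, because Airn and Igf2r are an antisense pair whose values are described below, and because CpG is the dinucleotide that Dnmt3a methylates. RefSeq windows on GRCm38.p6, 250 bases before and 50 bases after each annotated start, were found for 7 of the 10 listed genes (9 windows, since Grb10 and Meg3 have 2 each; Peg3, Zrsr1 and Plagl1 have 1). Capitals mark each CpG, and every sequence runs 5′ to 3′ on the strand of the gene. The 2 windows of Grb10 lie on the minus strand of chromosome 11, the upstream one at chr11:12037371-12037670 and the downstream one at chr11:12027922-12028221. The window of Airn lies at chr17:12741061-12741360 on the plus strand and that of Igf2r at chr17:12769657-12769956 on the minus strand, 28296 bases apart.
Grb10 upstream window: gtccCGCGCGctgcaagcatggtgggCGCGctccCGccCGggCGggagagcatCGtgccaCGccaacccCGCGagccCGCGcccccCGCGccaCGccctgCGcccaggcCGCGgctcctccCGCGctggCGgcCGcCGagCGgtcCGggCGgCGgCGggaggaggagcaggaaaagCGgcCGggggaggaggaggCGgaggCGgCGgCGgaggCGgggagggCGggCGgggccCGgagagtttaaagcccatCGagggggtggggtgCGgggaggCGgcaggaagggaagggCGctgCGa
Grb10 downstream window: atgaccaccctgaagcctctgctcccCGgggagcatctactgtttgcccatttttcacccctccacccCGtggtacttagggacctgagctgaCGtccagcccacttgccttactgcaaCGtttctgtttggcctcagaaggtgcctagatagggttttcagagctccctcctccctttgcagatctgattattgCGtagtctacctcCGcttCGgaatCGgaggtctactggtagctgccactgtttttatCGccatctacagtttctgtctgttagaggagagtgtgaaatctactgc
Airn window: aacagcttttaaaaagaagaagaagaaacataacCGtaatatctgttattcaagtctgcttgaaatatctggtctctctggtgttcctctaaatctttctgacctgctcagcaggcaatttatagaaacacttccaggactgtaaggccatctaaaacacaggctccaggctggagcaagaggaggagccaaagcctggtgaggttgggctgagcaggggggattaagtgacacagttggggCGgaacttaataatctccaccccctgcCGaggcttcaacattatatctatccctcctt
Igf2r window: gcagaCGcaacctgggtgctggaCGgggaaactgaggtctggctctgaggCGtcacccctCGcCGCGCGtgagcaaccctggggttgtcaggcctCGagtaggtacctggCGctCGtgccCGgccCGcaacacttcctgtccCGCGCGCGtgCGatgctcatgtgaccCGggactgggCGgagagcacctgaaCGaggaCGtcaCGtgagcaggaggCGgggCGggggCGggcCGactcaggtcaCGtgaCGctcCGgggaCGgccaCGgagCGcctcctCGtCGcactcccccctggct

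The upstream window of Grb10 holds 45 CpGs, more than 98.1% of the 32851 RefSeq windows, and its downstream window holds 9, near the median of 7. The Igf2r window holds 34 and the Airn window 3, so the 2 windows of this antisense pair differ much in CpG content. CpGs outside the windows were not counted, so these numbers do not describe the wider promoter regions or where the imprint of either gene lies. Among the other listed genes, Plagl1 has 26, Peg3 and the first Meg3 window 13 each, Zrsr1 10 and the second Meg3 window 1. The letters TGCCGC, which the imprint-protecting zinc finger protein Zfp57 is known to bind in methylated form, were searched on both strands and occur once each in the upstream Grb10 window, the Plagl1 window and the first Meg3 window, and in 11.6% of all windows. The palindrome CACGTG, the core of the MYC binding site, occurs at 2 places in the Igf2r window and once in the Plagl1 window, and in 7.15% of all windows. Neither motif contains the other. No methylation was measured here, and these matches describe the letters of the windows only.

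**Figure D2:**
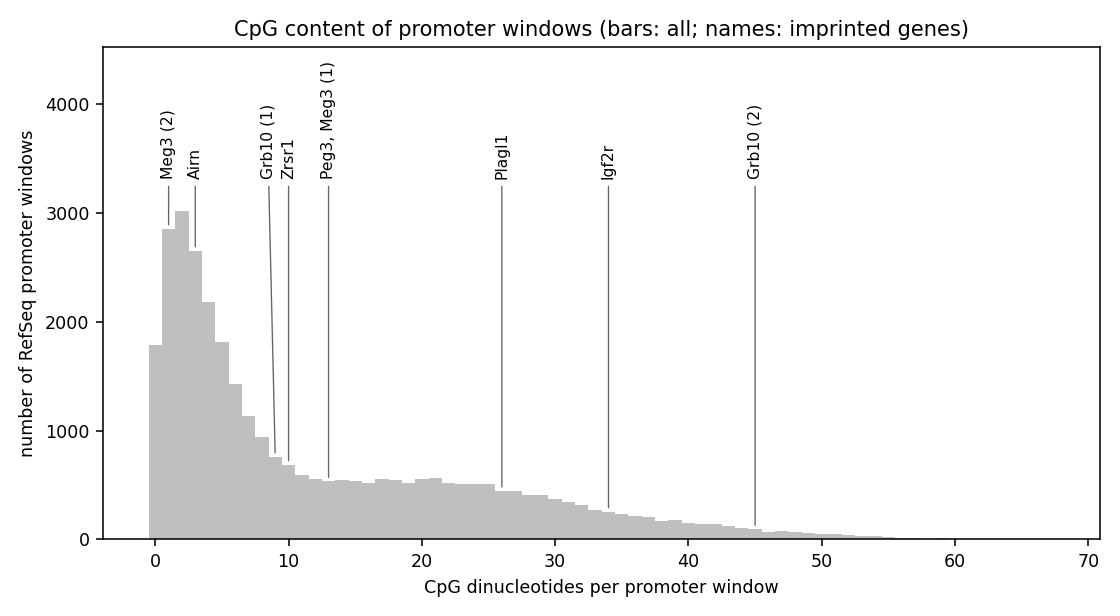
Number of RefSeq promoter windows (vertical axis) by the count of CpG dinucleotides in the window (horizontal axis); bars are all 32851 windows, and names mark the windows of the listed imprinted genes, where (1) is the window with the lower coordinates. The upstream Grb10 window (45 CpGs) and Igf2r (34) lie in the right tail, and Airn (3) lies left of the median of 7.

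Grb10 encodes an adaptor that binds the activated insulin and IGF1 receptors and damps their signal, and in most mouse tissues it is transcribed from the maternal allele. Its log2 expression was 7.51, 5.67, 5.96 and 9.43 in deficient tumors 1 to 4, 9.80, 10.09, 11.51, 11.91 and 9.59 in control tumors 1 to 5, and 5.52, 5.48 and 5.40 in normal thymocytes. All control tumors were far above all normal thymocytes, deficient tumors 2 and 3 were close to normal thymocytes, and deficient tumor 4 was just below the lowest control tumor. Grb10 averaged 7.14 ± 1.73 over the 4 deficient tumors, 10.58 ± 1.06 over the 5 control tumors and 5.47 ± 0.06 over the 3 normal arrays (mean ± SD). In these bulk samples fewer cells that use a gene and less RNA per cell cannot be told apart.

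Deficient tumors had 10.8-fold less Grb10 signal than control tumors (log2 difference -3.44, SE 0.68, 95% interval -4.91 to -1.96, limma adjusted p = 0.0442), with no overlap between the groups, as for 2.35% of all genes in this direction. The call rests on several arrays: it ended without control tumor 3 (difference -3.20, adjusted p = 0.117), control tumor 4 (-3.10, 0.110), deficient tumor 1 (-3.56, 0.0685), deficient tumor 2 (-2.95, 0.0772) or deficient tumor 3 (-3.04, 0.140), and with only the tumors in the fit (-3.44, 0.120), within a range of 0.00397 to 0.261 over 20 alternatives. With only the tumors in the fit, where the narrow spread of the normal thymocytes (SD 0.06) does not enter, the SE was 0.76. The 2 highest Grb10 values were in control tumors 3 and 4, which also had the high neutrophil markers. Without these 2 arrays the difference was -2.68 (adjusted p = 0.261), and the part of those cells in the result was not tested.

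Control tumors exceeded normal thymocytes by 34.5-fold in Grb10 signal (log2 difference 5.11, SE 0.74, 95% interval 3.50 to 6.72, adjusted p = 2.5e-04), and the call was kept in all 19 alternatives. The deposited values carry no detection call, and the 5.40 to 5.52 of normal thymocytes lie below the medians of those arrays (6.45 to 6.51). Grb10 is thus not shown to be above background there or in deficient tumors 2 and 3, and its folds are ratios of signal that can understate a change in RNA. The difference of deficient tumors from normal thymocytes was 1.67 (SE 0.78, 95% interval -0.01 to 3.35, adjusted p = 0.108), which did not pass the threshold although every deficient tumor lay above every normal array. Without deficient tumor 4, the highest of its group, the difference was 0.91 (adjusted p = 0.282), and with the replicate block it was 1.11 (0.133). Without deficient tumor 2 the difference was 2.17 and was called (adjusted p = 0.0454, in a range of 0.0454 to 0.282 over 18 alternatives). Within the deficient tumors Grb10 spanned 3.76 log2 units, the widest range of the 8 genes in that group, against 2.32 in control tumors and 0.12 in normal thymocytes.

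Genes that varied like Grb10 over the 12 arrays were sought among the 797 genes with an SD of at least 1. The closest were Wif1, a secreted inhibitor of Wnt ligands (Pearson r = 0.916), Alcam, a cell adhesion molecule (0.911), and Rhob, a small GTPase (0.904). Over the 9 tumors alone their correlations were 0.914, 0.865 and 0.866. Wif1 was at 7.17, 5.60, 5.16 and 6.78 in deficient tumors 1 to 4, at 8.16, 7.70, 10.91, 11.18 and 8.63 in control tumors 1 to 5, and at 5.64 to 6.14 in normal thymocytes, so it too was highest in control tumors 3 and 4. The most opposite gene was the receptor Notch1 (r = -0.857, and -0.770 over the tumors). These correlations describe 12 arrays that share group differences and carry no test.

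Airn and Igf2r are an antisense pair. Airn is a long noncoding RNA transcribed from the paternal allele whose promoter lies inside Igf2r, and its transcription silences paternal Igf2r. Igf2r encodes the large mannose 6-phosphate receptor, which sorts lysosomal enzymes and removes the growth factor IGF2 from the cell surface. Airn measured 10.37, 9.66, 9.57 and 9.41 in deficient tumors 1 to 4, 9.31, 9.23, 7.79, 7.85 and 7.97 in control tumors 1 to 5, and 6.83, 6.68 and 6.43 in normal thymocytes. The 3 groups did not overlap, and the control tumors split between arrays 1 and 2, just under the deficient tumors, and arrays 3 to 5, well below them.

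Airn was higher than in normal thymocytes by 3.11 in deficient tumors (SE 0.38, 8.61-fold, adjusted p = 4.2e-05) and by 1.78 in control tumors (SE 0.36, 3.44-fold, adjusted p = 0.00277), and both calls were kept in all alternatives, 18 and 19 in number. Between the tumor groups the difference was 1.32 (SE 0.33, 95% interval 0.60 to 2.04), with an adjusted p of 0.0775 that missed the threshold. The groups did not overlap, as for 3.80% of all genes in the higher direction. This difference passed the threshold after centring each array on its median (1.39, adjusted p = 0.0445), without control tumor 1 (1.54, 0.0289) and without control tumor 2 (1.52, 0.0207), in a range of 1.1e-04 to 0.543 over 20 alternatives. The 6 arrays with a 75th percentile of 8.50 to 8.60 were also the 6 with Airn at 9.23 to 10.37, and the other 6 had Airn at 6.43 to 7.97. All deficient tumors are in the higher set and all normal thymocytes in the lower one. Leaving out arrays thus cannot separate the 8.61-fold difference from this split, whose part in it was not tested. Within the lower set, control tumors 3 to 5 (7.79 to 7.97) lay above normal thymocytes (6.43 to 6.83). Set against control tumors 1 and 2 alone, deficient tumors differed by 0.49 (adjusted p = 0.543), and set against control tumors 3 to 5 by 1.88 (adjusted p = 1.1e-04). Under a second quantile normalization the difference of all deficient from all control tumors was 1.18 (adjusted p = 0.100), and under cyclic loess 1.15 (0.0870).

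The genes most like Airn over the 12 arrays followed the same split. They were the zinc finger genes Zfp58 (r = 0.982) and Zfp961 (0.981) and the cytochrome oxidase subunit gene Cox7b (0.977), with 0.958, 0.964 and 0.940 over the 9 tumors. Cox7b was at 11.37 to 11.56 in deficient tumors, at 11.32 and 11.46 in control tumors 1 and 2, at 9.42 to 9.74 in control tumors 3 to 5, and at 8.16 to 8.32 in normal thymocytes. Bloc1s4, a subunit of an organelle biogenesis complex, ran opposite (r = -0.980).

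No difference in Igf2r passed the threshold. It measured 8.96, 9.41, 9.49 and 8.99 in deficient tumors 1 to 4, 8.34, 8.86, 7.85, 8.05 and 9.20 in control tumors 1 to 5, and 9.02, 9.08 and 8.98 in normal thymocytes. Deficient tumors overlapped with control tumors through control tumor 5 alone, and control tumors 3 and 4 were the lowest of the 12 arrays. The difference of deficient from control tumors was 0.75 (SE 0.24, 95% interval 0.22 to 1.28, adjusted p = 0.133), that of deficient tumors from normal thymocytes 0.18 (SE 0.28, adjusted p = 0.637) and that of control tumors from normal thymocytes -0.57 (SE 0.27, adjusted p = 0.146). The small difference of deficient tumors from normal thymocytes turned to -0.11 and -0.12 under a second quantile normalization and cyclic loess. The difference between the tumor groups was called without control tumors 1 and 2 (0.84, adjusted p = 0.0407, in a range of 0.0407 to 0.534 over 20 alternatives). The difference of control tumors from normal thymocytes was called in 2 of 19 alternatives. The lowest adjusted p was without control tumor 5 (-0.75, 0.0275, in a range of 0.0275 to 0.503).

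In the deficient tumors Airn was 8.61-fold above normal thymocytes while the interval for Igf2r ran from -0.42 to 0.78 on the log2 scale. Over the 9 tumors Airn and Igf2r correlated at r = 0.60, Grb10 and Igf2r at -0.85, and Grb10 and Airn at -0.75. Over all 12 arrays these values were 0.18, -0.77 and 0.19, and each mixes differences between groups with those within them. The plot of the 3 genes against each other shows these arrays. The labels do not say whether the labelled target kept the strand, and signal of one transcript of the pair on probes of the other was not tested.

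**Figure D3:**
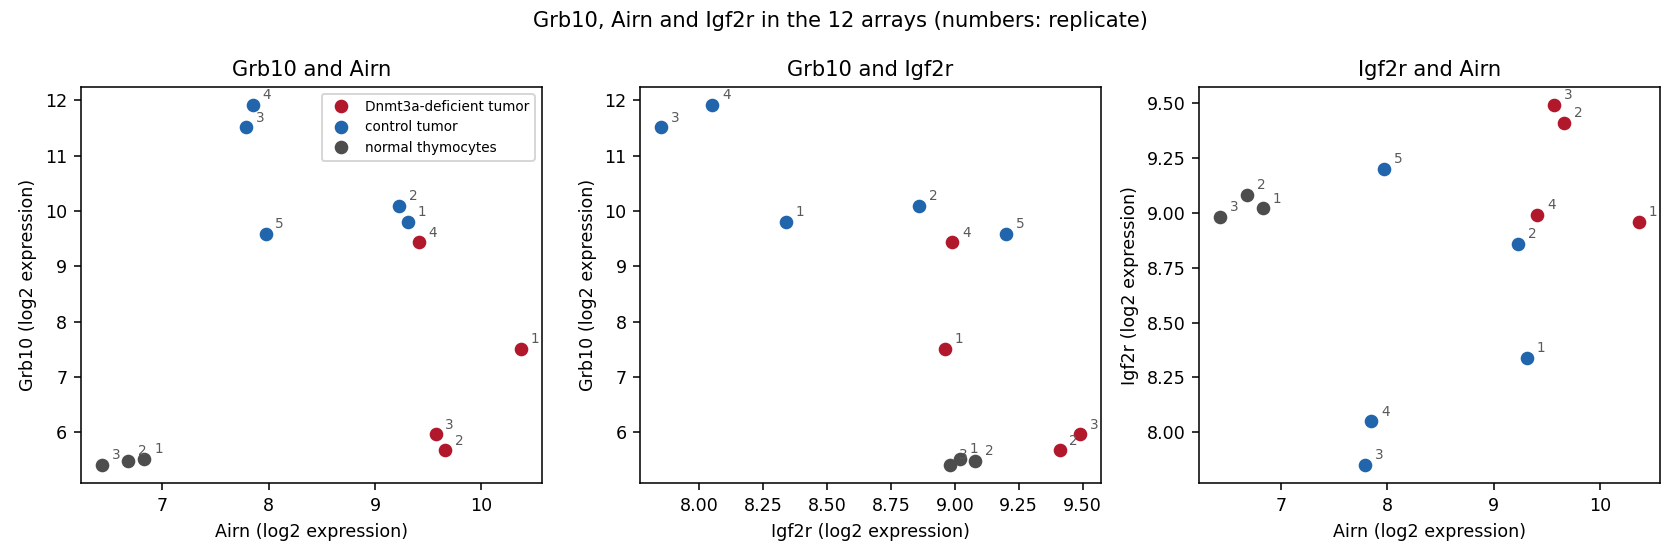
Log2 expression of Grb10 against Airn (left), Grb10 against Igf2r (middle) and Igf2r against Airn (right) in the 12 arrays; colours mark Dnmt3a-deficient tumors, control tumors and normal thymocytes, and numbers the replicate. Control tumors 3 and 4 combine the highest Grb10 (11.51 and 11.91) with the lowest Igf2r (7.85 and 8.05), and deficient tumors 2 and 3 combine low Grb10 with Airn at 9.66 and 9.57.

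Impact, transcribed from the paternal allele, encodes a protein that binds Gcn1 and holds back the amino acid sensing kinase Gcn2. It measured 8.11, 9.02, 8.62 and 9.13 in deficient tumors 1 to 4, 9.43, 9.31, 8.81, 8.10 and 8.85 in control tumors 1 to 5, and 7.26, 7.27 and 6.88 in normal thymocytes. Every tumor of both groups lay above every normal array, and the tumor groups overlapped widely. Deficient tumors were 3.00-fold higher than normal thymocytes (1.59, SE 0.30, adjusted p = 0.00128) and control tumors 3.40-fold higher (1.77, SE 0.29, adjusted p = 6.2e-04), calls kept in all 18 and 19 alternatives. The difference between the tumor groups was -0.18 (95% interval -0.76 to 0.40, adjusted p = 0.732). Genes with a like pattern over the 12 arrays were Arl14ep (r = 0.909), the Wnt co-receptor Ryk (0.908) and the fatty acid elongase Elovl6 (0.907), and the mouse Myc gene ran opposite (-0.912). Over the 9 tumors these correlations were 0.531, 0.482, 0.545 and -0.564, closer to 0 than over all arrays.

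Cdkn1c encodes p57, an inhibitor of cyclin-dependent kinases that is transcribed from the maternal allele. It measured 6.76, 6.69, 7.20 and 6.91 in deficient tumors 1 to 4, 6.55, 7.17, 6.61, 6.78 and 6.98 in control tumors 1 to 5, and 8.16, 7.97 and 7.57 in normal thymocytes. All 9 tumors lay below all normal arrays, and the tumor groups overlapped widely. Deficient tumors were 2.01-fold lower than normal thymocytes (-1.01, SE 0.20, adjusted p = 0.00137) and control tumors 2.11-fold lower (-1.08, SE 0.19, adjusted p = 8.8e-04), again in all 18 and 19 alternatives. The difference between tumor groups was 0.07 (95% interval -0.30 to 0.44). Its pattern over the 12 arrays was most like that of Bmf, a pro-apoptotic BH3-only gene (r = 0.948), Dhrs3, which reduces retinal (0.936), and Slc37a2, a sugar phosphate transporter (0.925), and most opposite to Utp14a, a ribosome assembly gene (-0.924). Over the 9 tumors these correlations were 0.842, 0.868, 0.577 and -0.392.

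Plagl1, a zinc finger transcription factor that restrains proliferation and is transcribed from the paternal allele, stayed at a low signal. It ranged from 5.54 to 5.75 in deficient tumors, with a median of 5.58, from 5.52 to 6.21 in control tumors, with a median of 5.75, and from 5.82 to 6.26 in normal thymocytes, with a median of 6.07. All deficient tumors lay below all normal arrays, with a mean difference of -0.44 (SE 0.17, adjusted p = 0.0611), which missed the threshold. It passed without normal thymocytes 2 (-0.56, adjusted p = 0.0471), with only the 2 groups in the fit (0.0295) and without control tumors 1 and 2 (0.0198), in a range of 0.0198 to 0.529 over 17 alternatives.

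Peg3 and Meg3 were near their lowest values in most arrays and high in single tumors. Peg3, a paternally transcribed zinc finger gene, measured 5.13, 5.63, 7.69 and 5.15 in deficient tumors 1 to 4, 5.62, 6.74, 5.24, 5.28 and 5.29 in control tumors 1 to 5, and 5.31, 5.74 and 5.26 in normal thymocytes. Meg3, a maternally transcribed long noncoding RNA, measured 5.28, 5.32, 5.30 and 5.07 in deficient tumors, 5.47, 6.74, 5.24, 5.24 and 5.17 in control tumors, and 5.66, 5.62 and 5.51 in normal thymocytes. Control tumor 2 was the high one of its group for both genes, and deficient tumor 3 for Peg3 only. Neither gene passed the threshold in any of the 3 comparisons, with adjusted p-values of 0.522 to 0.815 for Peg3 and 0.381 to 0.959 for Meg3. Without control tumors 1 and 2, Meg3 was called lower than in normal thymocytes, with a difference of -0.36 in deficient tumors (adjusted p = 0.0284, in a range of 0.0284 to 0.850 over 17 alternatives) and of -0.39 in control tumors (0.0433, range 0.0433 to 0.997 over 18). In deficient tumors 2 of the 17 alternatives called Meg3 lower.

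Control tumor 2 is also the array with the adipocyte markers, with Fabp4 at 10.16 and Adipoq at 8.20 there, against 4.75 to 5.02 and 4.60 to 5.27 in the other control tumors. It had the highest fibroblast marker mean of the control tumors too (7.13, against 5.86 to 6.38, with 11 of 11 markers measured). In deficient tumor 3 the fibroblast mean was 6.74 against 6.07 to 6.49 in the other deficient tumors, and the adipocyte mean was 5.54, close to the others. The macrophage marker mean (12 of 13 measured) was 7.72 in deficient tumor 3, against 6.89 to 7.27 in the other deficient tumors, and 7.92 in control tumor 2, against 6.15 to 7.05 in the other control tumors. Of the 8 imprinted genes, 4 were highest in control tumor 2 among the control tumors (Peg3, Plagl1, Meg3 and Cdkn1c), and of the 57 other imprinted genes measured 23 were (40.4%), against 22.8% of all genes. Dlk1, a paternally transcribed growth regulator made by preadipocytes, was at 9.80 in control tumor 2 and at 6.73 to 7.97 in the other control tumors. Peg10, a paternally transcribed gene of retrotransposon origin, was at 9.39 there and at 5.05 to 6.94 in the others. The part of adipose, stromal or macrophage cells in these values was not tested.

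**Figure D4:**
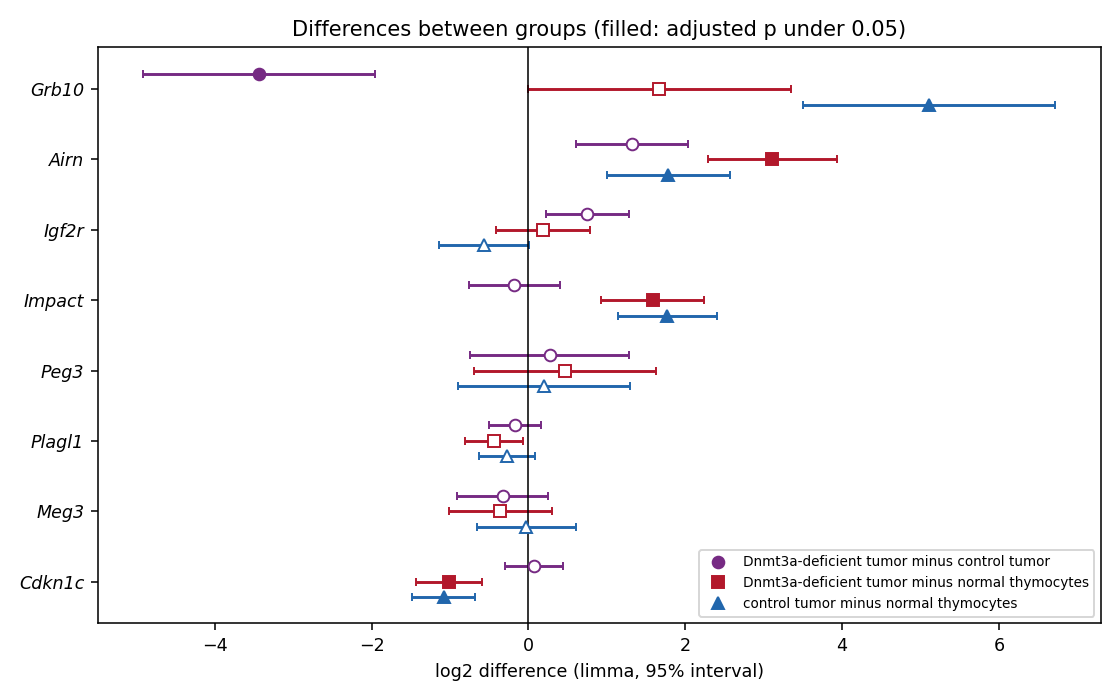
Log2 difference (horizontal axis) with its 95% interval from limma for the 8 imprinted genes in the 3 comparisons; filled symbols passed an adjusted p of 0.05 over all genes. Grb10 is the 1 gene with a filled symbol for deficient against control tumors (-3.44), and the intervals of Peg3 and Meg3 cross 0 in all 3 comparisons.

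Other imprinted genes of the mouse were taken from a list of 67, of which 57 were measured. The arrays do not separate the alleles, so whether these genes are imprinted in T cells was not tested. Between deficient and control tumors limma called none of them, 11 of 57 had an unadjusted p under 0.05 (against 20.2% of all genes), and their median difference was -0.01, as over all genes. Against normal thymocytes, deficient tumors had 7 higher and 11 lower (31.6% called, against 37.6% of all genes), with a median of -0.18 beside -0.10 over all genes. Control tumors had 4 higher and 6 lower (17.5%, against 24.4%), with a median of -0.12 beside -0.08. Among the genes lower in deficient tumors, Kcnq1, Magel2, Rasgrf1, Slc22a2, Nap1l5 and Sfmbt2 averaged below the array medians in all 3 groups. They are thus not shown to be above background. Kcnq1 and Sfmbt2 are also among the lower ones in control tumors. The count between tumor groups was 15 (11 higher, 4 lower, 26.3%) without control tumors 1 and 2, where 25.3% of all genes were called.

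Among the higher genes in deficient tumors against normal thymocytes were Ddc, the aromatic amino acid decarboxylase gene next to Grb10 (2.29, SE 0.59, adjusted p = 0.00827), Gatm, an enzyme of creatine synthesis (2.10, SE 0.46, adjusted p = 0.00319), and the proteoglycan Dcn (2.03, SE 0.72, adjusted p = 0.0409). Among the lower ones were Smoc1, a secreted matrix protein (-2.06, SE 0.54, adjusted p = 0.00944), Atp10a, a phospholipid flippase (-1.88, SE 0.49, adjusted p = 0.00851), and the transcription factor Klf14 (-1.22, SE 0.20, adjusted p = 3.6e-04). Jade1, a scaffold of a histone acetyltransferase complex, was higher in deficient tumors (1.52) and in control tumors (1.18). Gatm followed the split of the arrays, with 7.74 to 8.42 in deficient tumors, 7.95 and 8.21 in control tumors 1 and 2, 5.93 to 6.52 in control tumors 3 to 5 and 5.75 to 6.22 in normal thymocytes. Dcn is itself on the fibroblast marker list.

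Slc38a4, a paternally transcribed amino acid transporter gene, was called higher in control tumors against normal thymocytes and not in deficient tumors. It measured 6.29, 5.20, 5.20 and 5.17 in deficient tumors 1 to 4, 7.70, 8.47, 9.48, 6.61 and 5.83 in control tumors 1 to 5, and 5.63, 4.94 and 5.00 in normal thymocytes. The difference of deficient from control tumors was -2.16 (SE 0.58, adjusted p = 0.0942), which missed the threshold. That of deficient tumors from normal thymocytes was 0.27 (adjusted p = 0.777), and that of control tumors from normal thymocytes was 2.43 (SE 0.63, adjusted p = 0.0126). Control tumor 5 overlapped with the deficient tumors.

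**Figure D5:**
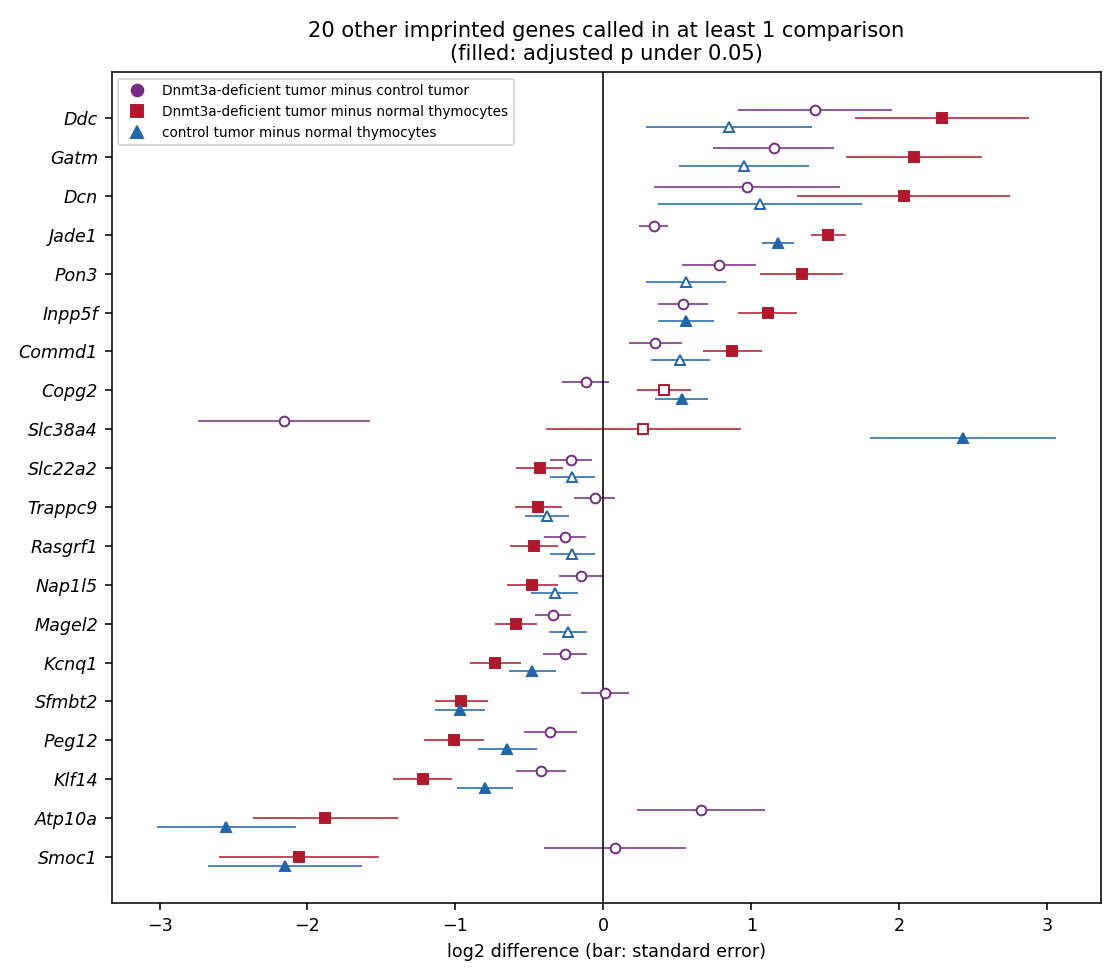
Log2 difference (horizontal axis, bar: standard error) of the 20 other imprinted genes that passed an adjusted p of 0.05 in at least 1 of the 3 comparisons; symbols and colours mark the comparison, and filled symbols passed. No symbol for deficient minus control tumors is filled, and Slc38a4 is the gene with the widest gap between its 2 tumor groups (-2.16).

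Genes in the domains around the imprinted 8 were described next; some of them are imprinted and counted above as well. Of 29 measured neighbours none was called between the tumor groups (6 had an unadjusted p under 0.05), and their median difference was -0.01. Against normal thymocytes 4 were higher and 3 lower in deficient tumors (24.1%, median -0.11), and 1 was higher and 2 lower in control tumors (10.3%, median -0.12), both below the 37.6% and 24.4% of all genes called in these comparisons. Next to Grb10, Ddc was at 6.91, 7.84, 7.43 and 8.12 in deficient tumors 1 to 4, at 5.71, 6.74, 4.93, 5.26 and 8.08 in control tumors 1 to 5 and at 4.98 to 5.55 in normal thymocytes, a difference between tumor groups of 1.43 (SE 0.52, adjusted p = 0.158) whose sign is opposite to that of Grb10. Ikzf1, the lymphoid transcription factor gene on the other side of Ddc, differed by -0.02 between the tumor groups (adjusted p = 0.974). Fignl1, a recombination factor gene between Ikzf1 and Ddc, was higher than in normal thymocytes by 1.38 in deficient tumors and by 1.24 in control tumors. Kcnq1, in the domain of Cdkn1c, was lower than in normal thymocytes, with a difference of -0.73 in deficient tumors (adjusted p = 0.00392) and of -0.48 in control tumors (adjusted p = 0.0436). Slc22a2, an organic cation transporter gene in the cluster with Igf2r, was lower in deficient tumors (-0.43, adjusted p = 0.0487). In deficient tumors, control tumors and normal thymocytes, Kcnq1 averaged 5.64, 5.89 and 6.37, and Slc22a2 4.95, 5.17 and 5.38. These means lie below the array medians of 6.40 to 6.58, so neither gene is shown to be above background.

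Regulators of DNA methylation and of imprinted chromatin were measured for 24 of 24 listed genes; the list holds factors that lay down methylation (Dnmt3a, Dnmt3l), keep it (Dnmt1, Uhrf1, Zfp57) or remove it (Tet1, Tet2, Tet3). Between the tumor groups Dnmt3a alone was called (6 of 24 had an unadjusted p under 0.05). Against normal thymocytes 10 were higher and 4 lower in deficient tumors (58.3% called, median 0.50), and 9 were higher and 3 lower in control tumors (12 of 24, median 0.10), beside the 37.6% and 24.4% of all genes. The higher ones included Zfp445, a zinc finger protein that binds imprinting control regions, by 1.70 in deficient tumors and 1.61 in control tumors, and Smchd1, a chromosomal protein that silences imprinted clusters, by 2.12 and 1.83 in the same order. The heterochromatin protein gene Cbx5 (2.43 and 1.85) and the remodeler gene Hells (2.32 and 2.43) were higher as well. The lower ones included Dnmt3a itself (-2.06 and -0.82) and Uhrf1 (-0.67, adjusted p = 0.0484, and -0.70, adjusted p = 0.0488). Trim28 was called lower in deficient tumors only (-0.51, adjusted p = 0.0264). Dppa3, which shields imprints in the early embryo, was lower (-1.57 and -1.12). Its signal was 4.08 on average in deficient tumors, 4.53 in control tumors and 5.65 in normal thymocytes. These means lie below the array medians, so Dppa3 is not shown to be above background in any group.

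Partners of the imprinted proteins were measured from lists drawn up for each pathway. Of 30 insulin and IGF signaling genes, in which Grb10 acts, none was called between tumor groups (6 had an unadjusted p under 0.05). Deficient tumors had 5 higher and 7 lower than normal thymocytes (40.0%, median -0.12), and control tumors 3 higher and 3 lower (20.0%, median -0.18), near the 37.6% and 24.4% of all genes. Igf1r, the IGF1 receptor gene, was lower in deficient tumors (-1.78, adjusted p = 0.0149) and missed the threshold in control tumors (-1.23, adjusted p = 0.0847). It was at 5.87 to 6.01 in deficient tumors and at 7.63 to 7.81 in normal thymocytes. Control tumors 1 to 5 were at 8.52, 6.64, 5.72, 5.79 and 5.91, so control tumor 1 alone lay above normal thymocytes. The tumor groups differed by -0.55 (adjusted p = 0.509). The ubiquitin ligase gene Nedd4, whose product binds Grb10, was higher in both (2.52 in deficient and 2.25 in control tumors), and Grb7, a paralog of Grb10, was higher in deficient tumors (2.58, adjusted p = 0.00451). Grb7 was at 8.24 to 9.78 in deficient tumors, at 6.17 to 9.14 in control tumors and at 6.39 to 7.10 in normal thymocytes.

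Of 17 genes of mannose 6-phosphate sorting and the lysosome, where Igf2r acts, 1 was called between the tumor groups (against 0.818% of all genes). An unadjusted p under 0.05 was found for 7 of the 17 (against 20.2%). Gnptg, a subunit of the enzyme that makes the mannose 6-phosphate tag, was at 8.77 to 8.93 in deficient tumors, at 7.95 to 8.39 in control tumors and at 7.92 to 8.02 in normal thymocytes (deficient minus control tumors 0.69, SE 0.11, adjusted p = 0.0217). Its catalytic partner Gnptab was higher than in normal thymocytes by 2.51 in deficient tumors and by 1.56 in control tumors. Against normal thymocytes 9 were higher and 4 lower in deficient tumors (76.5%, median 0.83, against 37.6% of all genes), and 5 were higher and 5 lower in control tumors (58.8%, median 0.41, against 24.4%). The membrane protein gene Lamp2 was higher by 2.72 in deficient tumors and by 3.38 in control tumors. Of 17 genes around Gcn2, the kinase that Impact restrains, none was called between the tumor groups (4 had an unadjusted p under 0.05). Against normal thymocytes 5 were higher and 2 lower in deficient tumors (41.2%, median 0.19, near the 37.6% of all genes) and 4 were higher and 2 lower in control tumors (35.3%, median 0.01, against 24.4%). Asparagine synthetase, Asns, differed by 4.05 in deficient tumors and 3.82 in control tumors, and the Gcn2 gene Eif2ak4 by 1.20 and 0.75 in the same order.

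The product of Cdkn1c belongs to the cyclins, kinases and kinase inhibitors of G1 phase, of which 13 were measured. Between the tumor groups 1 was called (against 0.818% of all genes), and 5 had an unadjusted p under 0.05 (against 20.2%). The called cyclin gene Ccne2 was higher in deficient than in control tumors (1.21, SE 0.24, adjusted p = 0.0453). It was at 8.38 to 8.96 in deficient tumors and at 5.76 to 6.63 in normal thymocytes. Control tumors 1 and 2 were at 7.92 and 8.04, and control tumors 3 to 5 at 6.94 to 7.36. Ccne2 thus followed the split of the arrays, whose part in it was not tested. Against normal thymocytes 5 of the 13 were higher and 4 lower in deficient tumors (69.2%, median -0.26, against 37.6% of all genes), and 3 were higher and 4 lower in control tumors (53.8%, median -0.08, against 24.4%). Of the 5 other kinase inhibitors measured, 2 were lower in both tumor groups (Cdkn2d and Cdkn1b). Cdkn2a (adjusted p = 0.304 in deficient and 0.424 in control tumors), Cdkn2b (0.115 and 0.844) and Cdkn2c (0.196 and 0.233) did not pass. Cdkn2d, which encodes p19, differed by -3.29 in deficient tumors (adjusted p = 1.1e-06) and by -2.43 in control tumors (adjusted p = 1.0e-05). Cdkn1b, which encodes p27, differed by -1.12 in deficient tumors (adjusted p = 0.00837) and by -1.21 in control tumors (adjusted p = 0.00579).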

How the data were processed

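Total RNA of 12 arrays was measured: 4 of Dnmt3a-deficient tumors, 5 of control tumors and 3 of normal thymocytes, grouped by their titles. The deposited values are log2 expression per probe set. Per the submitters' processing notes, the authors used RMA and Affymetrix Expression Console; their versions and the strand handling are not stated in the labels. The 75th percentiles of the arrays differ (8.13 to 8.60), and which arrays were normalized together is not given either. The table holds 23858 probe sets, 20870 with 1 symbol, 1453 with several and 1535 with none; the last 2 kinds were left out. Of the 20870, 20822 were matched to a RefSeq gene table (GRCm38.p6). The probe set with the highest mean was kept per gene (19309 genes), with no filter on dim genes. The lowest signals were 2.40 to 2.72, and differences near this floor are compressed. No 2 arrays were identical.

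All 12 arrays entered 1 linear model with a mean per group, in limma 3.58.1 (R 4.3.3; 9 residual and 4.17 prior degrees of freedom). Tests were two-sided, adjusted by Benjamini-Hochberg over all genes, and called at an adjusted p under 0.05; every adjusted p is from this fit unless an alternative is named. Precision is limited by the number of arrays. The imprinted genes and lists were chosen with earlier results of these data known. Besides the 8 genes and Dnmt3a, the rule named up to 4 called genes per list and comparison with the largest difference and the genes most like each called gene. The text prints part of these. It names Dlk1, Peg10, Klf14, Ikzf1, Slc22a2, Magel2, Rasgrf1, Nap1l5, Sfmbt2, Zfp445, Dppa3, Uhrf1, Trim28, Fabp4 and Adipoq after their values were seen. Replicate numbers in the titles did not pair the arrays (correlations of deviations from the group means of -0.134 to 0.338 for equal numbers). The fit was tested on simulated data, and no result here rests on the outcome of that test. The fit uses 1 spread per gene, while group SDs of these arrays can differ, as for Grb10 (1.73, 1.06 and 0.06 in deficient tumors, control tumors and normal thymocytes). Alternatives were other scalings, a filter on dim genes, other fits and left-out arrays.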

Additional observations from a re-analysis of the deposited data

Results flagged for a closer look

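Among the 8 imprinted genes, 16 groups of 4 or 5 arrays were searched for a sample far from the rest, and 2 held one, where chance gives about 1 in 20. In control tumor 2, Peg3 was at 6.74, a gap of 1.12 to the next control tumor, which is 0.745 of the range of the group (critical value 0.71). In the same array Meg3 was at 6.74, a gap of 1.27 and 0.808 of the range. The adipocyte marker mean of this array was 8.24, against 5.38 to 5.47 in the other control tumors. The part of adipose cells in both values was not tested.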

How the results depend on the processing

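The differences of Airn, Impact and Cdkn1c from normal thymocytes in both tumor groups, and of Grb10 in control tumors, kept their direction and their call in all alternatives run, 18 for deficient and 19 for control tumors. Between the tumor groups, the call of Grb10 held in 11 of 20 alternatives (differences of -4.20 to -2.68). The number of the 8 imprinted genes called there was 2 with arrays centred on their medians (1.96% of all genes called), 3 without control tumors 1 and 2 (25.3%), and 0 with only the 2 groups in the fit (0.00518%), with a robust trend, without control tumors 3 and 4 and without control tumors 3, 4 and 5; leaving out single arrays gave 0 to 2. The other imprinted genes called were 15 without control tumors 1 and 2, 1 without control tumors 3, 4 and 5, and 0 to 2 without single arrays. Dnmt3a missed the threshold with only the tumors in the fit (-1.25) and without control tumors 3 and 4 (-1.47), and ranged from -1.37 to -1.02 without single arrays. Leaving out control tumors 3 and 4, or 3, 4 and 5, was chosen after seeing the data.

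Against normal thymocytes, 5 of the 8 genes were called in deficient tumors with only the 2 groups in the fit (44.7% of all genes called) and also without control tumors 1 and 2 (44.5%). Without the dimmest 50% of genes, where fewer genes were tested and Peg3, Plagl1 and Meg3 gave no value, the other imprinted genes called were 10 in deficient and 6 in control tumors; without single arrays they were 6 to 13 in control tumors.

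Signs turned only for differences that were not called over all arrays. For deficient minus control tumors, Impact was 0.13 and Meg3 0.028 without control tumors 1 and 2, Cdkn1c was -0.0096 without control tumors 3 and 4, and Peg3 was -0.28 without control tumors 3, 4 and 5. Without single arrays Impact ranged from -0.38 to 0.022, Peg3 from -0.33 to 0.54 and Cdkn1c from -0.031 to 0.16. For deficient tumors minus normal thymocytes, Igf2r was -0.11 under a second quantile normalization and -0.12 under cyclic loess, and Peg3 ranged from -0.13 to 0.72 without single arrays. For control tumors minus normal thymocytes, Peg3 was -0.16 without control tumors 1 and 2 and -0.074 to 0.35 without single arrays. Meg3 was 0.053 under the second quantile normalization, 0.13 under cyclic loess, 0.20 without control tumors 3 and 4, 0.51 without control tumors 3, 4 and 5, and -0.32 to 0.073 without single arrays. Where no construction of the alternative shows it, the cause was not tested.

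Replicate numbers are shared between groups but did not pair the arrays. With the replicate number as a block, 1, 3 and 5 of the 8 genes were called in the 3 comparisons and 2, 16 and 11 of the other imprinted genes, and Meg3 was 0.17 for control tumors minus normal thymocytes. Group sizes of 3 to 5 arrays limit what could be detected, and probe sets near the lowest signals understate differences.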
